A study of Mus musculus with 3 samples.

Results

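Cluster 24 of the mouse iridocorneal angle is a group of cells labelled as monocytes or macrophages and marked by Csf1r, the receptor for the growth factor on which macrophages depend. Its members are the kept cells to which the deposited cluster table gives the number 24. They numbered 1575 of 26008 kept cells, with 515 of 9076 in control replicate 1, 659 of 10160 in control replicate 2 and 401 of 6772 in Angpt1ΔNC.

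Limbal tissue with the iridocorneal angle, through which aqueous humor leaves the eye, was dissociated and run as droplet single-cell RNA libraries. The controls were Angpt1 flox/flox mice and the mutants Angpt1 flox/flox;Wnt1Cre+ mice, in which Cre driven by Wnt1 deletes Angpt1 in neural crest derivatives. All animals were 6 weeks old and of mixed strain after crossing to albino ICR mice, and each library is a pool of 2 to 3 animals. With 2 control pools and 1 Angpt1ΔNC pool, the spread between mutant animals was not measured.

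Tissue macrophages take up debris, present antigen on MHC class II molecules, and release chemokines and cytokines. Resident macrophages express C1q, the first component of the classical complement pathway, and scavenger receptors such as Mrc1 (CD206), whereas classical monocytes arrive from the blood and carry Ly6c2 and Ccr2. Macrophages come from hematopoietic and yolk sac progenitors rather than from the neural crest, so they are not by lineage a target of the deletion.

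Several facts about the libraries bear on what follows. Outside cluster 24, Angpt1 stood at 39.6 and 41.7 counts per 1000000 UMIs (CPM) in the controls and at 0.409 in Angpt1ΔNC. According to the labels males and females were pooled, but in cluster 24 the controls held 0 Xist UMIs and Angpt1ΔNC held 1516, and the other kept cells of the controls held 3 and 2. In Angpt1ΔNC, 117 cells of the cluster had UMIs of Y-linked genes without Xist, 205 had Xist alone, 2 had both and 77 had neither. Sex composition therefore moved with the genotype, and its part in the differences below was addressed only by a fit restricted to Y-positive cells without Xist. Between libraries, 1 cell barcode was shared within cluster 24 and 52 among all kept cells.

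Cluster 24 carried the genes of resident macrophages, and the defining genes of monocytes were at or near 0. Against all other kept cells the genes with the highest fold in every library were, in order, Ccl4, C1qa, C1qb, C1qc, Ccl3, Pf4, Tnf, Ms4a7, Bcl2a1b and Cd83. C1qa, which encodes a chain of C1q, had a UMI in 98.6%, 99.1% and 99.3% of cluster 24 cells (control replicate 1, control replicate 2 and Angpt1ΔNC, an order kept throughout). In the epithelium of clusters 4 and 5, which should lack it, the shares were 2.02%, 3.85% and 2.74%, although the median epithelial cell held 17717, 15168.5 and 15135 UMIs against 6577, 6554 and 6903 in cluster 24. Csf1r was found in 91.8%, 90.6% and 91.5% of cluster 24 cells and in 0.708%, 0.494% and 0.439% of epithelial cells. Cd68, a lysosomal membrane protein of macrophages, stood at 849, 878 and 798 CPM, and Adgre1, which encodes F4/80, at 229.9, 237 and 249. These identity genes were close to even over the 3 libraries.

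Ly6c2 had 0 UMIs in all cells of the cluster, which allows a share of cells with a UMI of up to 0.583%, 0.455% and 0.748%, a limit on detection and not on expression. Ccr2 was seen in 1.75%, 3.34% and 3.99% of cells. Of the 20 monocyte genes listed, 4 had no UMI in any library and 0 reached 100 CPM in all 3, against 14 of 18 core mononuclear phagocyte genes. The label holds for macrophages, while the defining genes of monocytes were undetected or rare at this depth. Genes of mast cells summed to 2.02, 1.71 and 0.677 CPM and those of neutrophils to 17.0, 17.7 and 23.4. Cd3e of T cells was seen in 0%, 0.152% and 0% of cells. Cd79a of B cells was seen in 0%, 0.607% and 0%, and Flt3 of dendritic cells in 0.194%, 0.303% and 0.998%. The full lists of these cell types were higher than such single genes. The T and NK cell list summed to 207.1, 267.6 and 300.1 CPM, and the B cell list to 106.4, 120.1 and 93.8. The conventional dendritic cell list summed to 531.0, 459.2 and 430.1 CPM, with 2 genes at 100 CPM or more in all 3. Ighm, the heavy chain of IgM, was seen in 176 of 515, 245 of 659 and 124 of 401 cells.

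**Figure D1:**
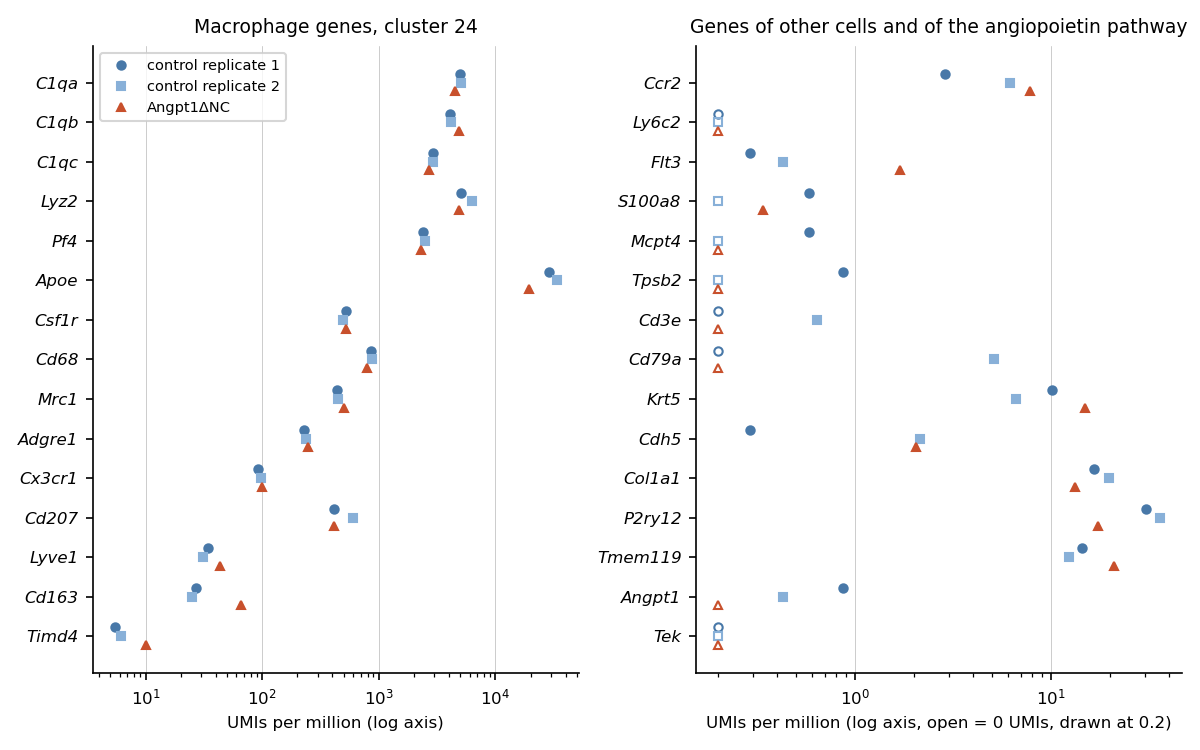
Level of each gene in cluster 24 in CPM on a log axis, with 1 point for each library (open points are 0 UMIs). Macrophage genes on the left lie close together over the libraries, with Cd163 highest in Angpt1ΔNC (27.1, 25.0 and 65.7), while on the right Ly6c2 and Tek have 0 UMIs and P2ry12 stands at 30.6, 35.8 and 17.3.

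Genes that mark kinds of resident macrophages were seen in widely different shares of the cells. These shares also follow the level of each gene and the depth of the cells. They were not compared with an even spread. Mrc1 was seen in 64.9%, 63.9% and 69.1% of cells, and Cx3cr1, the fractalkine receptor, in 37.1%, 39.8% and 39.7%. Lyve1, a hyaluronan receptor of vessel-associated macrophages, was seen in 8.35%, 8.19% and 10.7%, and Timd4, a phosphatidylserine receptor of long-lived resident macrophages, in 2.72%, 3.64% and 3.74%. The microglial genes P2ry12 and Tmem119 were found in 15.9%, 16.1% and 10.5% and in 7.77%, 6.22% and 9.73% of cells. Cd207 (langerin), a lectin of Langerhans and some other phagocytes, was found in 17.5%, 22.3% and 17.2%, against 0%, 0.395% and 0.329% of epithelial cells. It is not particular to this cluster. Cluster 23, which also carries phagocyte genes, held it at 1298, 265 and 564 CPM against 410, 595 and 410 in cluster 24. Trem2, a lipid-sensing receptor, was seen in 59.6%, 71.9% and 68.6%.

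The angiopoietin pathway was almost silent in the cluster. Angpt1 had 3, 2 and 0 UMIs, at or under the floor of 3 counts, so no fold is given. Tek, its receptor, had 0 UMIs. Of 10 pathway genes, 3 had enough counts for the genotype test described below and 0 passed it, against 4.48% of all genes.

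The share of cluster 24 among kept cells was alike in the libraries. It was 5.67% in control replicate 1 (exact 95% interval 5.21% to 6.17%), 6.49% in control replicate 2 (6.01% to 6.98%) and 5.92% in Angpt1ΔNC (5.37% to 6.51%). Angpt1ΔNC lay between the controls, whose mean was 6.08% ± 0.574 (SD, n = 2), a difference of -0.159 percentage points. With 3 libraries no permutation of genotypes can pass the usual threshold, so no test is given, and the intervals cover counting error only. Among the cells of clusters 22 to 25 the share was 70.5%, 64.9% and 61.7%, where Angpt1ΔNC was the lowest.

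The most abundant inflammatory transcripts of the cluster were chemokines. Cxcl2, a neutrophil attractant, stood at 24623, 19295 and 27848 CPM and was seen in 97.7%, 97.7% and 96.0% of cells, against 15.5%, 18.0% and 21.2% of the deeper epithelial cells. The monocyte attractants Ccl7 and Ccl2 stood at 6188, 4856 and 5619.7 and at 5878, 4503 and 4282. Together the 21 chemokine genes of the list took 58487, 44152 and 62194 CPM. Tnf, an inflammatory cytokine, had a UMI in 94.0%, 87.1% and 89.3% of cells, against 3.44%, 2.47% and 2.31% of epithelial cells. Immediate early genes, which respond within minutes to many stimuli, summed to 21859, 15431 and 16505. The tissue had passed through collagenase and trypsin at 37° before capture, and the part of those steps in these levels was not tested.

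The DNA just before the start sites is shown for Cxcl2, the most abundant chemokine, and for Tnf, which separates this cluster from cluster 25. It is also shown for the C1q chains C1qb and C1qc, neighbours on chromosome 4 that are high in both clusters. Each sequence is the 250 bases before the RefSeq start site in build GRCm38.p6, 5′ to 3′ on the strand of the gene. Capitals mark matches on either strand to GGG, any 2 bases and TTTCC, a form of the NF-κB motif, in Cxcl2 and Tnf, and to GAGGAAGT, a form of the PU.1 motif, in C1qb and C1qc.
Cxcl2, chr5:90903649-90903898, plus strand: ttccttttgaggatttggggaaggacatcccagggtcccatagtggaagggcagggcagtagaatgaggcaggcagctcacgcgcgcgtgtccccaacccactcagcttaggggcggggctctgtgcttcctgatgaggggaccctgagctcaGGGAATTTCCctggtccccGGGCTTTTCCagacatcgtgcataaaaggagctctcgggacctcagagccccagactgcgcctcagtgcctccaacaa
Tnf, chr17:35202008-35202257, minus strand: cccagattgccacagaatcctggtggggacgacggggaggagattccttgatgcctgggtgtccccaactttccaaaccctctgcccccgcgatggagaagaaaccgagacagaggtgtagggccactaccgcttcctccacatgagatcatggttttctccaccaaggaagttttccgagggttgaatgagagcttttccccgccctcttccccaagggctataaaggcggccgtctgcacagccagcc
C1qb, chr4:136886201-136886450, minus strand: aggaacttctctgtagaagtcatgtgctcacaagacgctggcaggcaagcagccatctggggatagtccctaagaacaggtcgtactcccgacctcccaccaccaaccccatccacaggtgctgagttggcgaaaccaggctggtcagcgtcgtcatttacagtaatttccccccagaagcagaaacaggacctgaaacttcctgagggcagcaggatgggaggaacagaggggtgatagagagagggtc
C1qc, chr4:136892915-136893164, minus strand: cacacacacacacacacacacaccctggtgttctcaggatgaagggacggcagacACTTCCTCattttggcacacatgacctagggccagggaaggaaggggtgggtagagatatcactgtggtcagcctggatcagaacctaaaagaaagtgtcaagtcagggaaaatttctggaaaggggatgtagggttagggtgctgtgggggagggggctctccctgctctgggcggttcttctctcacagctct

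Cxcl2 held 2 matches, which begin 97 and 78 bases before the start, and the Tnf window held 0. C1qc held 1 match, which begins 195 bases before the start, and C1qb held 0. Of 27025 promoter windows of this length, 1.40% held that form of the NF-κB motif and 2.44% held GAGGAAGT. A match describes the letters only.

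The genes that varied most among cells of cluster 24 were hemoglobin genes, chemokines, Apoe, Cd74, Fth1, Il1b and Il12b. Each cell was thinned to 3000 UMIs, which kept 478, 645 and 392 cells and left out 37, 14 and 9. Over 2567 genes with a mean of at least 0.1 thinned UMIs in every library, the median ratio of variance to mean was 1.10, 1.10 and 1.12. The 12 genes with the highest ratios were Hbb-bs, Hba-a1, Ccl4, Cxcl2, Apoe, Cd74, Ccl2, Ccl7, Il1b, Fth1, Cxcl1 and Il12b.

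Ccl4, a chemokine that attracts leukocytes, had ratios of 57.1, 56.8 and 72.9. It was at 0 in 37.0%, 53.3% and 33.2% of thinned cells, and the 10% of cells with most held 52.1%, 68.5% and 53.2% of its UMIs. Ccl2 was at 0 in 30.8%, 31.2% and 31.6% of cells while the top 10% held 45.6%, 54.1% and 46.9%. These chemokines and Il1b came mainly from a part of the cells in each library. For Il1b, the interleukin 1 beta gene, the shares at 0 were 40.8%, 45.7% and 42.6%. Cxcl2 was spread over nearly all cells instead, with a median of 65, 49 and 64.5 UMIs.

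Apoe, which carries lipid out of macrophages, had a median of 72.5, 81 and 53 UMIs per thinned cell, with 5.70, 7 and 0 at the 10th percentile and 201, 228 and 132 at the 90th. Cd74, the invariant chain that escorts MHC class II, had a median of 36, 36 and 14. Angpt1ΔNC was the lowest library for both medians. Il12b, which encodes a subunit of interleukin 12, was at 0 in 91.2%, 92.9% and 93.9% of thinned cells and reached 64, 58 and 40 UMIs in the highest cell. Fth1, the ferritin heavy chain that stores iron, had a median of 119, 110 and 101 and was high in most cells.

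**Figure D2:**
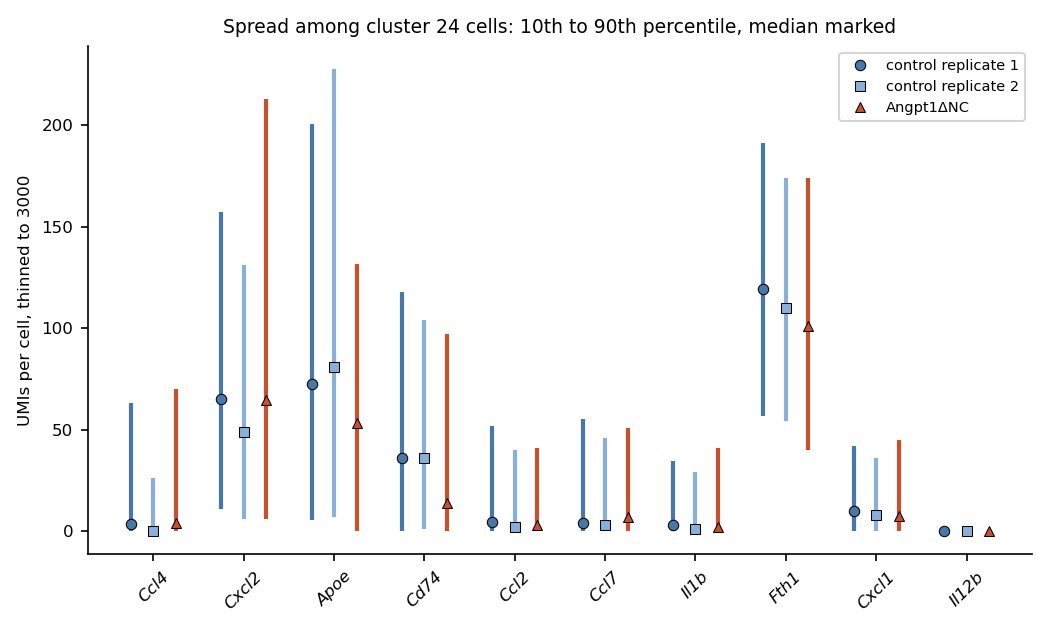
UMIs per cell after thinning to 3000 for the most variable genes apart from hemoglobin. Bars run from the 10th to the 90th percentile of cluster 24 cells in each library and points mark the medians. Cxcl2, Apoe and Fth1 are high in the median cell, Ccl4 has medians of 3.50, 0 and 4 with long upper ranges, and Il12b is at 0 up to the 90th percentile.

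A part of the cluster carried Cd207 with high MHC class II and was low in scavenger receptors. Cells with at least 1 Cd207 UMI numbered 90 of 515, 147 of 659 and 69 of 401. This split was made after the values were seen and on the same cells, so what follows is a description with no test. Dcstamp, a fusion protein of osteoclasts and dendritic cells, stood at 742, 541 and 515 CPM in cells with Cd207 and at 168, 130.5 and 127 in the others. Mmp12, the macrophage elastase, stood at 682, 494 and 411 against 66.3, 61.2 and 108. H2-Ab1, an MHC class II chain, stood at 7206, 7449.8 and 7289.9 against 3315, 3261 and 2798. Zmynd15, Il7r, Glipr1, Cytip, H2-DMb1, H2-Aa, Kcnn4, Lgals3 and Lsp1 completed the 12 genes that led on this side.

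Cells without Cd207 were higher in Mrc1, at 515, 536 and 585 CPM against 95.5, 161 and 127. Cbr2, Hbegf, Fabp5, Clec4n, Ccl7, Gas6, Ltc4s, Ctsd, Pf4, Hcar2 and Rcan1 were the other genes that led on their side. Apoe ran the same way, with 33220.4, 38239 and 22134 against 8949, 17045 and 6786. C1qa did not separate the cells, with 5330.3, 5546 and 5135 in those with Cd207 and 4890.1, 4981 and 4336 in the others. Langerhans cells are known for Epcam beside Cd207. Epcam stood at 9.09, 13 and 9.06 in cells with Cd207 against 2.49, 3.05 and 6.25 in the others, higher with Cd207 in each library. These levels rest on few counts, 6, 14 and 5 UMIs against 7, 11 and 15. Itgax, which encodes CD11c, stood at 74.2, 50.2 and 56.2 against 10.3, 7.20 and 22.9.

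After thinning to 3000 UMIs, Mrc1 was seen in 20% (11.4% to 31.3%), 24.2% (17.0% to 32.7%) and 23.6% (13.2% to 37.0%) of cells with Cd207, with exact 95% intervals in parentheses. Without Cd207 it was seen in 57.4% (52.4% to 62.2%), 56.6% (52.2% to 60.9%) and 63.8% (58.4% to 68.9%). Dcstamp ran the other way, with 85.7%, 66.9% and 72.7% of cells with Cd207 against 27.0%, 21.9% and 21.7% of the others. Both genes were chosen because they led the split on these cells, so the shares describe its size at equal depth.

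**Figure D3:**
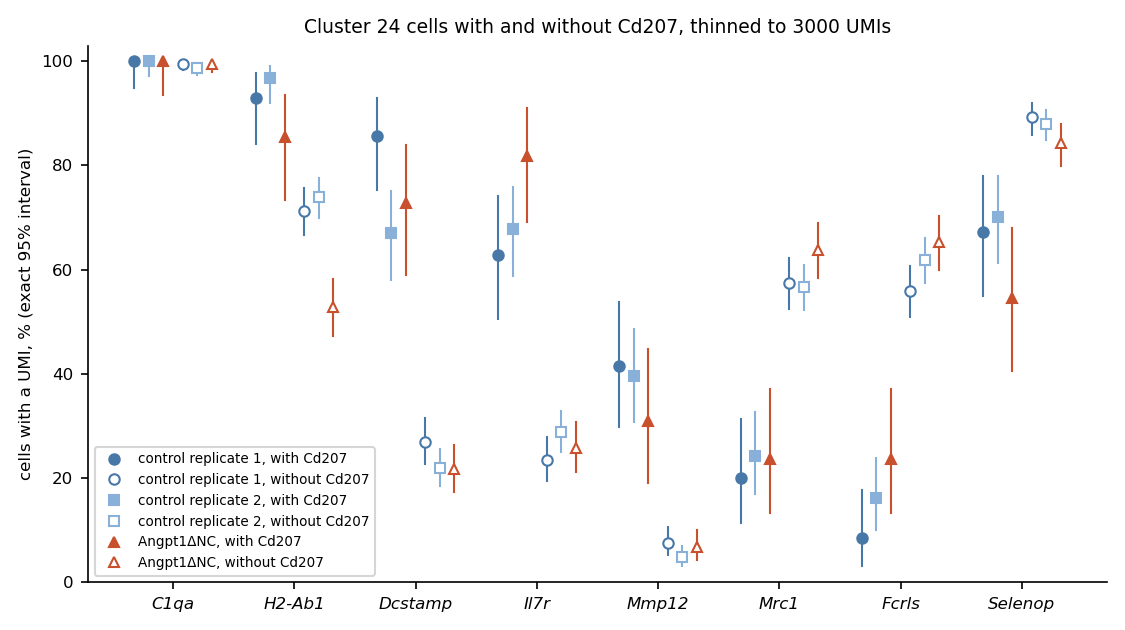
Share of cluster 24 cells with a UMI of each gene after thinning to 3000 UMIs, for cells with Cd207 (filled) and without (open), with exact 95% intervals that cover counting error only. Dcstamp, Il7r and Mmp12 are more frequent in cells with Cd207 and Mrc1, Fcrls and Selenop less frequent in each library, while C1qa is at 100.0%, 100.0% and 100.0% and 99.5%, 98.7% and 99.4%.

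A small set of cells was filled with hemoglobin transcripts. Cells with over 100 hemoglobin UMIs, a limit set after the values were seen, numbered 3 of 515, 1 of 659 and 18 of 401. These are 0.583% (exact 95% interval 0.12% to 1.69%), 0.152% (0.00384% to 0.843%) and 4.49% (2.68% to 7.0%) of the cluster. In Angpt1ΔNC the median such cell held 3482 hemoglobin UMIs, and all 18 had C1qa and Csf1r, 17 had Mrc1, and 14 had Alas2, the heme synthesis enzyme of red cell precursors. Of the 18, 3 were Y-positive without Xist and 10 had Xist alone. Outside the cluster the shares of such cells were 0.304%, 0.274% and 0.596%. The authors had removed doublets before the deposit, and whether these cells are remaining doublets was not tested.

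Photoreceptor transcripts were lowest in Angpt1ΔNC. Together they stood at 136, 57.8 and 4.74 CPM in the cluster and at 123, 19.7 and 1.95 outside it, a set of genes chosen after the values were seen. Cells with 10 or more such UMIs numbered 6, 4 and 0. The order of the libraries was the same inside and outside the cluster, and the part of retina in the dissections was not tested.

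Dividing cells were few. Mki67, a proliferation marker, stood at 34.3, 44.4 and 24.7 CPM. Cells with 5 or more UMIs of mitotic genes made up 3.30%, 4.25% and 4.49% of the cluster.

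Cluster 25 carries the same identity genes in 56, 81 and 58 cells. Its median depth was 1456, 1728 and 1321 UMIs, which is low for these libraries, whose median kept cell held 6329.5, 6393.5 and 7444. The clusters were made from these same genes, so their differences are a description. With 10 CPM added to both levels, 781 of 5652 genes (13.8%) were at least 2-fold higher in cluster 24 in every library, and 108 (1.91%) were at least 2-fold lower.

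Inflammatory genes separated the clusters far more than the core phagocyte, complement and resident macrophage lists. The chemokine list summed to 58487, 44152 and 62194 CPM in cluster 24 and to 5959, 8590.3 and 8888 in cluster 25, and 12 of its 19 genes with enough counts were higher in every library. Interleukin and inflammasome genes summed to 10604, 8521 and 9905 against 1023, 1416 and 1329, with 10 of 15 higher. Chemokine receptors (5 of 8), co-stimulation genes (6 of 9) and growth factors (11 of 18) followed, and 0 genes of these 5 lists were lower in every library. The complement list, by contrast, summed to 13233, 13358 and 13266 in cluster 24 and to 14166, 14838 and 15826 in cluster 25. Of 14 resident macrophage genes 0 differed in every library, and of 17 core phagocyte genes 2 were higher and 2 lower. Macrophage transcription factors did separate the clusters, with sums of 10087, 9388 and 9058 against 1585, 2825 and 1895. Of 19 such genes 9 were higher in cluster 24 in every library and 1 was lower.

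Tlr2, a receptor for bacterial lipoproteins, led the genes higher in cluster 24, at 742, 721 and 669 CPM against 22.5, 31.7 and 21.8. Il1rn, which encodes the antagonist of interleukin 1, was 20.7-fold, 18.3-fold and 24.6-fold higher. Il12b had 0 UMIs in cluster 25, so it was at least 8.61-fold, 10.5-fold and 3.97-fold higher against a floor of 3 counts per library. Tnf was seen in 1.79%, 7.41% and 6.90% of cluster 25 cells, and rested there on 1, 11 and 5 UMIs. After thinning every cell to 1000 UMIs, Tnf was seen in 67.4%, 54.8% and 51.4% of cluster 24 cells and in 1.79%, 7.41% and 5.17% of cluster 25 cells. C1qa at that depth was seen in 94.2%, 95.4% and 97.0% and in 96.4%, 87.7% and 89.7%. Ccr1, Ccrl2, Edn1, Kcnk13, Mir155hg, Tnip3, Rab7b and Cxcl3 were the other genes that led.

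On the side of cluster 25, Tpsb2, Mcpt4, Cma1, Tpsab1 and Cpa3, proteases of mast cells, led by fold. Each came from 1 cell of cluster 25 in every library, so they describe single cells. Ighm, the heavy chain of IgM, was 6.98-fold, 4.24-fold and 5.42-fold higher in cluster 25, where it was seen in 46.4%, 39.5% and 41.4% of cells. Ntpcr, AW112010, Hpgd, Gpsm3, Smagp and Sptssa were the remaining genes that led. Csf1r stood at 527, 489 and 524 CPM in cluster 24 and at 629.6, 527 and 468 in cluster 25, and did not separate them.

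**Figure D4:**
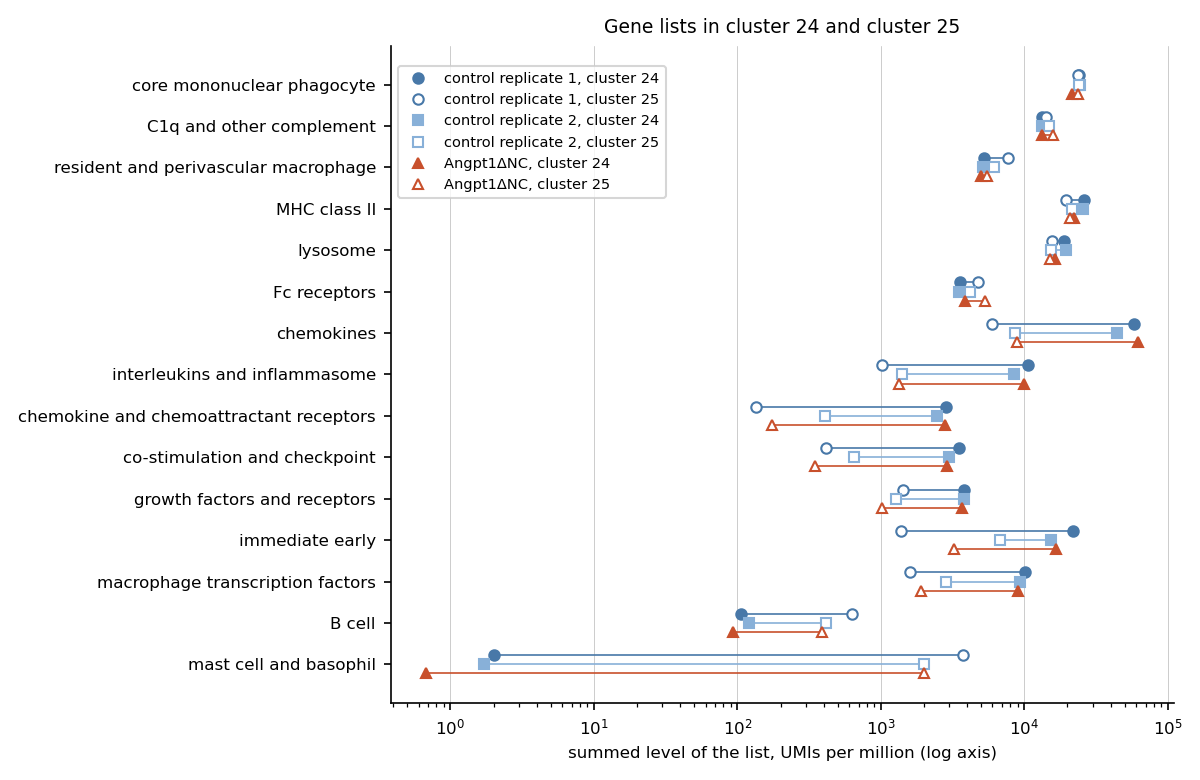
Summed level of gene lists in cluster 24 and cluster 25, in CPM on a log axis, with a line joining the clusters of 1 library. Core phagocyte, resident macrophage, complement and MHC class II lists lie together. Chemokine, interleukin, immediate early and macrophage transcription factor lists are higher in cluster 24 in every library. Core phagocyte genes sum to 23983, 24583 and 21676 in cluster 24 and 23554, 24189.9 and 23777 in cluster 25.

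The genotypes were compared in cluster 24 on the counts summed per library, 3467273, 4686409 and 2952463 UMIs. By edgeR's quasi-likelihood test with Benjamini-Hochberg adjustment, 243 of 9454 genes (2.57%) were higher in Angpt1ΔNC and 181 (1.91%) were lower, and 226 (2.39%) differed over 2-fold. Only 1 residual degree of freedom is left, and the single mutant library is taken to vary like the controls. The test therefore leans on a spread shared over genes, which counts for 12.37 prior degrees of freedom. DESeq2 called 36 genes higher and 36 lower, all among the 424 of edgeR. The 24 genes named by the fixed rule passed in every alternative that gives a p, DESeq2 and the Y-positive cells included. In summed counts, fewer cells of a kind and less RNA per cell cannot be told apart.

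Several of the clearest differences were shared with other cells. Gm10260, a predicted gene, stood at 376, 539 and 3.05 CPM in cluster 24 and at 532, 640.4 and 2.1 in the kept cells outside clusters 22 to 25. Rpl29, a ribosomal protein gene, stood at 118, 142 and 499.9 in the cluster and at 125, 136 and 546 outside. Gm11361 stood at 95.8, 91.8 and 6.44 and at 122, 102 and 7.64. The mutant library thus lay apart from both controls in and out of the cluster for these genes, as it did for Gm10320. Ftl1-ps1 (log2 -1.92), Hist1h1b (-3.65) and Hist1h1e (-3.57) were lower in the cluster, and their mutant levels were also the lowest outside it. Ribosomal, histone and ferritin genes have near copies, so their counts may be split among copies and are uncertain.

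BC023719, annotated as an antisense transcript, had 24.8, 18.1 and 0 CPM and was at least 21.1-fold lower in Angpt1ΔNC against the floor of 3 counts. Il11ra1, a chain of the receptor for interleukin 11, stood at 2.60, 2.77 and 51.1 in the cluster and at 28.0, 32.5 and 197 outside. Hba-a2 stood at 14.7, 1.92 and 2297, against 5.79, 4.03 and 306 outside. It is nearly identical to Hba-a1, so the split between these genes is uncertain. Both Il11ra1 and Hba-a2 were higher in Angpt1ΔNC in and out of the cluster, more so within it. In the mutant cluster 99.8% of the hemoglobin UMIs lay in the 18 hemoglobin-rich cells.

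Genes of the Ifi200 family, which encode DNA-binding, interferon-inducible proteins and lie side by side on chromosome 1, differed in both directions. Ifi203 (chromosome 1, 173920407 to 173942672, build GRCm38) stood at 73.5, 106 and 449 CPM (log2 2.36 ± 0.19 (SE), edgeR adjusted p = 8.14e-06). Ifi202b (chromosome 1, 173962568 to 173982744) stood at 275, 266 and 19.6 (log2 -3.74 ± 0.21 (SE), edgeR adjusted p = 2.45e-07). Ifi211 (chromosome 1, 173896345 to 173913046) stood at 49.9, 63.4 and 179.5 and Ifi204 at 168, 138 and 241. Ifi203 and Ifi211 were thus higher and Ifi202b lower in Angpt1ΔNC, and Ifi204 was called higher by edgeR and not by DESeq2 (adjusted p = 0.424). Outside clusters 22 to 25 Ifi202b was not lower, at 569.7, 763 and 1031. The genotype effect in the cluster differed from that in the other cells for Ifi202b (log2 -4.48 ± 0.28, edgeR adjusted p = 5.96e-06) and for Ifi203 (1.99 ± 0.18, edgeR adjusted p = 7.43e-05). Cluster 23, which also carries phagocyte and MHC class II genes and held 70, 142 and 86 cells, was not among those cells. There Ifi202b stood at 62.4, 91.5 and 1.45 and Ifi203 at 12.9, 14.7 and 91.1, which is the direction seen in cluster 24. Ifi202b was also lowest in Angpt1ΔNC in cluster 25, on 6, 16 and 1 UMIs. The effects in clusters 24 and 23 were not tested against each other. The family has near copies, among which reads may be split.

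The genotype effect in cluster 24 also differed from that outside clusters 22 to 25 for other named genes. Slc25a28, a mitochondrial iron carrier, stood at 17.0, 16.9 and 63.3 CPM in cluster 24 and at 17.2, 15.8 and 13.5 outside. Dock10, a guanine nucleotide exchange factor of leukocytes, stood at 45.3, 49.7 and 137 against 2.45, 2.60 and 1.91. Apold1 stood at 15.0, 15.8 and 58.6 against 27.0, 30.1 and 31.6. For each of the 3 the mutant library was well over both controls in the cluster, and the difference between the cluster and the cells outside clusters 22 to 25 passed the test. In cluster 23 Slc25a28 stood at 23.7, 27.3 and 50.6 and Dock10 at 66.7, 54.7 and 76.6, also highest in Angpt1ΔNC, while Apold1 rested on 2, 3 and 1 UMIs. Dock10 rested there on 31, 52 and 53 UMIs, and its mutant level was near that of control replicate 1.

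Among genes lower in the mutant cluster, Cacna1a, a calcium channel subunit, stood at 34.3, 37.1 and 1.35 CPM and at 2.56, 2.51 and 3.19 outside. Irak1bp1, a binding partner of a kinase of Toll-like receptor signalling, stood at 85.4, 92.4 and 6.10 against 20, 21.1 and 10.7. Fam20c, a kinase of secreted proteins, stood at 85.4, 60.8 and 6.10 against 13.2, 9.67 and 9.76. BC022687 followed them, at 112, 159 and 11.9 against 20, 20.9 and 7.53. In each of these the mutant library lay far under both controls within the cluster. In cluster 23 Irak1bp1 stood at 38.7, 23.1 and 5.78 and BC022687 at 23.7, 77.8 and 4.34, both lowest in Angpt1ΔNC, while Fam20c rested on 6, 20 and 6 UMIs and Cacna1a on 2, 3 and 0.

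Ly6e, an interferon-inducible surface protein, was higher at 102, 85.8 and 262 CPM (log2 1.53 ± 0.16 (SE), edgeR adjusted p = 8.28e-05), and so was Hes1, a target of Notch signalling, at 121, 116 and 298 (log2 1.37 ± 0.15 (SE), edgeR adjusted p = 0.000129). For both, the kept cells outside clusters 22 to 25 were also higher in Angpt1ΔNC, at 60.4, 52.5 and 128 and at 377, 369.9 and 632. In cluster 23 Ly6e was highest in Angpt1ΔNC, at 66.7, 190 and 257, but Hes1 was lowest there, at 73.2, 95.7 and 44.8. Hes1 in cluster 25 rested on 0, 13 and 5 UMIs.

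Over all 9454 genes, the genotype effect in cluster 24 differed from that in the kept cells outside clusters 22 to 25 for 175 (1.85%), by edgeR with the library as a block. This comparison was added after the data had been seen. Of the 424 genes called in the cluster, 79 were among them, and in 77 the difference of effects had the direction of the effect in the cluster, 50 higher and 27 lower. Both tests use the same cluster 24 counts, so this overlap and the shared direction are partly built in. The other cells are a mixture whose make-up differs between libraries, and its part was not tested. Apoe stood at 28600.3, 33370.3 and 19265 in the cluster, which did not pass (log2 -0.64 ± 0.18 (SE), edgeR adjusted p = 0.0638), and at 3243, 3999.9 and 4206 outside, and the effects differed (log2 -0.96 ± 0.08, edgeR adjusted p = 3.43e-05).

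**Figure D5:**
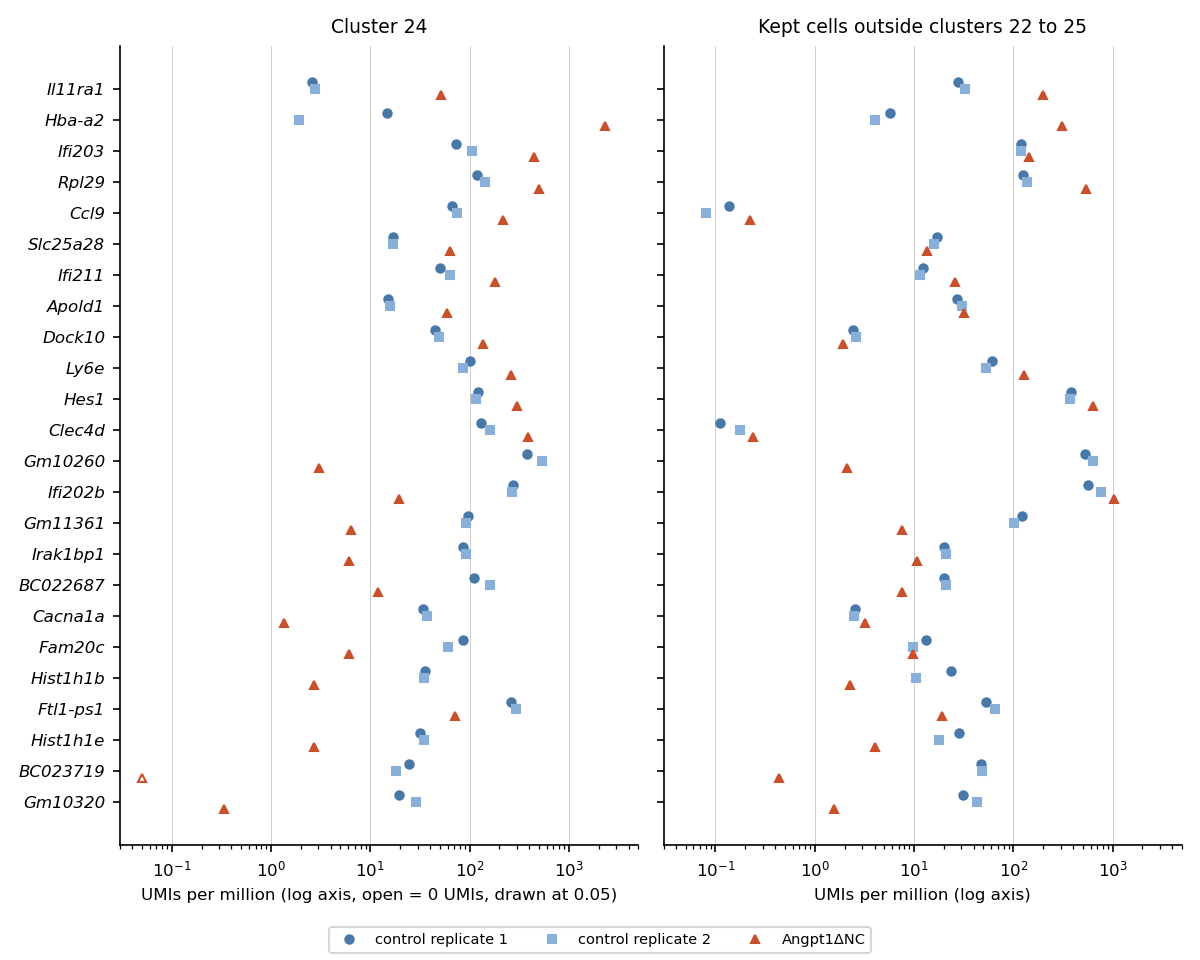
Levels of the 24 genes named by rule in cluster 24 (left) and in the kept cells outside clusters 22 to 25 (right), in CPM on a log axis, with 1 point for each library. In the cluster Angpt1ΔNC lies outside both controls for every gene, as the rule requires. Gm10260, Rpl29 and Gm11361 show the same gap on the right, and Ifi202b, Cacna1a and Slc25a28 do not.

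Chemokines differed in both directions. Of 21 tested, 6 were higher in Angpt1ΔNC and 3 lower, with a median log2 difference of 0.28 against -0.02 over all genes, of which 2.57% were called higher and 1.91% lower. Ccl9 stood at 66.3, 74.9 and 216 CPM (log2 1.65 ± 0.15 (SE), edgeR adjusted p = 3.19e-05), and Ccl6 at 35.8, 19.6 and 83.7 (log2 1.67 ± 0.25 (SE), edgeR adjusted p = 0.00151). Ccl12, a monocyte attractant, stood at 805, 562 and 1399 (log2 1.07 ± 0.21 (SE), edgeR adjusted p = 0.0097). Ccl3, Ccl5 and Ccl17 were called higher by edgeR and not by DESeq2. Cxcl14 was lower, at 90, 59.3 and 20 (log2 -1.85 ± 0.27 (SE), edgeR adjusted p = 0.00129), as were Ccl24 (184, 208 and 98.9) and Cxcl13 (6.92, 7.04 and 0.339). DESeq2 did not call Ccl24 (adjusted p = 0.072) and gave Cxcl13 no adjusted p.

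The most abundant chemokines did not pass. Cxcl2 had a log2 difference of 0.38 ± 0.19 (edgeR adjusted p = 0.306). Ccl4 had one of 0.66 ± 0.32 (edgeR adjusted p = 0.3), and its controls were far apart, at 6824, 3053 and 7582 with Angpt1ΔNC last. Ccr1, a receptor for Ccl3, Ccl5, Ccl6 and Ccl9, was higher at 544, 600.0 and 1027 (log2 0.88 ± 0.17 (SE), edgeR adjusted p = 0.00854). It was the 1 gene called of 11 chemokine and chemoattractant receptors, against 4.48% of all genes.

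Some receptors for debris and microbes were higher in Angpt1ΔNC. Of 19 pattern recognition and scavenger receptor genes 5 were higher and 0 lower, against 2.57% and 1.91% of all genes, with a median log2 difference of 0.25. Cd36, a scavenger receptor for oxidised lipid, stood at 62.0, 62.9 and 133 CPM (log2 1.13 ± 0.15 (SE), edgeR adjusted p = 0.000765). Cd163, the receptor for hemoglobin bound to haptoglobin, stood at 27.1, 25.0 and 65.7 (log2 1.38 ± 0.17 (SE), edgeR adjusted p = 0.000398), and was seen in 10.1%, 10.8% and 20.7% of cells, or 3.11%, 2.73% and 5.49% after thinning to 1000 UMIs. Clec4d, a C-type lectin, stood at 131, 159 and 388 (log2 1.46 ± 0.16 (SE), edgeR adjusted p = 0.000145), Clec4n, which encodes dectin-2, at 236, 259.7 and 436 and Tlr7, a sensor of single-stranded RNA, at 36.9, 42.7 and 62.7. DESeq2 did not call Cd163 (adjusted p = 0.072) or Tlr7 (adjusted p = 1.00), and Clec4n was not called in Y-positive cells.

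MHC class II genes did not move as a group. Of 10 tested 1 was higher and 2 were lower, against 2.57% and 1.91% of all genes, with a median log2 difference of -0.07. H2-Eb1 was higher, at 2023, 2337 and 3905 CPM (log2 0.88 ± 0.18 (SE), edgeR adjusted p = 0.0116). H2-DMb2, a chain of the peptide exchange factor H2-DM, was lower, at 29.4, 35.0 and 3.73 (log2 -3.07 ± 0.33 (SE), edgeR adjusted p = 0.000112). H2-DMa, at 307, 337 and 203, was lower too (log2 -0.62 ± 0.17 (SE), edgeR adjusted p = 0.0495), a call that RLE factors, DESeq2 (adjusted p = 0.507), the Y-positive cells and leaving out hemoglobin-rich cells each ended. H2-Ab1 had a log2 difference of -0.15 ± 0.18 (edgeR adjusted p = 0.721). It was seen in 65.4%, 66.3% and 52.9% of cells thinned to 1000 UMIs and in 79.2%, 83.2% and 67.3% of unthinned cells. H2-Eb1 was also highest in Angpt1ΔNC in cluster 23, at 4246, 4033 and 11312 CPM, and in cluster 25, at 1034, 1752 and 3725. H2-DMb2 ran the other way in cluster 23, where it stood at 133, 115 and 176 and was highest in Angpt1ΔNC.

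Macrophage transcription factors were called on both sides, 3 higher and 3 lower of 20, with a median log2 difference of -0.15. Over all genes, 2.57% were called higher and 1.91% lower. Spic, a factor of red pulp macrophages that heme induces, was lower at 169.9, 178 and 58.6 CPM (log2 -1.53 ± 0.17 (SE), edgeR adjusted p = 0.000145). Maf, Runx3 and Tcf4 were called higher and Cebpa and Klf2 lower, and DESeq2 called 0 of these 5. Of 24 interferon response genes 2 were higher (Ifi204 and Ifi27l2a) and 2 lower (Irf1 and Gbp2). Irf1 stood at 328, 257 and 102 (log2 -1.48 ± 0.20 (SE), edgeR adjusted p = 0.000663), and DESeq2 called Irf1 and not the other 3. Myc was the 1 gene called of 22 immediate early genes, at 40.4, 32.4 and 9.48 (log2 -1.89 ± 0.27 (SE), edgeR adjusted p = 0.00129). Outside clusters 22 to 25 Irf1 stood at 88.8, 70.9 and 32.5 and Myc at 113, 115 and 56.6, both also lowest in Angpt1ΔNC. Their effects in and out of the cluster did not differ by the test (edgeR adjusted p = 0.452 and 0.175). Spic was nearly absent outside, at 0.0962, 0.0944 and 0.0481.

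Most identity genes did not pass. Csf1r had a log2 difference of 0.08 ± 0.17 (edgeR adjusted p = 0.847), C1qa one of -0.13 ± 0.18 (edgeR adjusted p = 0.763) and Mrc1 one of 0.22 ± 0.16 (edgeR adjusted p = 0.541). Over all genes tested, 2.57% were called higher and 1.91% lower. Of 18 core phagocyte genes 2 were higher (Maf and Mertk), and of 15 resident macrophage genes 3 were higher (Cd163, F13a1 and Igf1). DESeq2 called 0 of these 5. Of 12 complement genes 1 was higher, C4b, at 7.79, 9.39 and 33.2 CPM, and it was lost in DESeq2 (adjusted p = 0.0673). Of 6 Fc receptor genes 2 were higher, Fcgr3 at 245, 227 and 401 and Fcgr4 at 30.6, 31.4 and 56.6, neither of which DESeq2 called.

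Of 23 lysosomal genes 1 was higher (Gpnmb) and 2 lower (Ctsc and Hexa), against 2.57% and 1.91% of all genes, and DESeq2 called Ctsc and not the other 2. Ctsc, the protease that activates granule enzymes, stood at 664, 742 and 366 CPM (log2 -0.90 ± 0.18 (SE), edgeR adjusted p = 0.0109). Of 16 lipid genes 3 were higher (Lpl, Spp1 and Gpnmb), and 0 of these passed in DESeq2. Cytokines were mostly short of the threshold. Of 17 interleukin and inflammasome genes 2 were higher (Il23a and Ptgs2) and 1 was lower (Il12b), but Il23a and Ptgs2 were lost with RLE factors, Ptgs2 and Il12b with DESeq2 (adjusted p = 0.471 and 0.239) and Il12b in Y-positive cells, while Il1b had a log2 difference of 0.33 ± 0.19 (edgeR adjusted p = 0.399) and Tnf one of -0.48 ± 0.24 (edgeR adjusted p = 0.314). Of 18 growth factor and receptor genes 4 were higher (Csf2, Csf2rb, Hbegf and Igf1) and 1 lower (Areg), and DESeq2 called 0 of these 5. Of 20 cell cycle genes and 12 heat shock genes 0 passed. Of 10 microglial genes 2 were lower (P2ry12 and Sparc), of 12 dendritic cell genes 1 was lower (Fscn1), and of 12 MHC class I genes 1 was higher (Tap1) and 1 lower (Tap2), and DESeq2 called 0 of these 5.

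Markers of other cells moved with the genotype in part. The erythroid list was higher in Angpt1ΔNC in 4 of 5 genes, against 2.57% of all genes, with sums of 3855, 275 and 22399.9 CPM. Without the hemoglobin-rich cells, an alternative added after seeing the data, edgeR called 246 genes higher and 190 lower, and Hba-a1 and Hbb-bs were no longer called, while Alas2 no longer had enough counts to be tested. DESeq2 called Hba-a2 and not the other 3. Ttr, a transcript of the retinal pigment epithelium, was lower at 20.5, 57.2 and 1.02, with its list at 30.6, 78.5 and 4.40. Krt15, an epithelial keratin, was higher at 3.75, 4.48 and 14.2. Of 8 stroma genes 1 was lower, Sparc, which is also on the microglia list. Of the T and NK cell, B cell, neutrophil, endothelium, mural, glia and melanocyte lists 0 genes were called. In cells with at most 1 UMI of T and NK cell, B cell, neutrophil, mast cell, endothelial and epithelial markers, edgeR called 229 higher and 173 lower. Beyond that, the part of RNA from other cells, stroma included, in the genotype differences was not tested.

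Xist, the X inactivation RNA, was higher in Angpt1ΔNC and the Y-linked Eif2s3y lower, at 72.7, 73.4 and 35.9 CPM (log2 -0.98 ± 0.17 (SE), edgeR adjusted p = 0.00539). Among the Y-positive cells alone edgeR called 144 genes higher and 93 lower, 189 of them among the 424, on fewer cells.

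The genotype effect in cluster 24 was also set against that in cluster 25. Of 8740 genes 2 differed by edgeR (0.0229%), and 132 had an unadjusted p under 0.05. For Ccl4, cluster 25 held 7, 27 and 67 UMIs, or 78.7, 171 and 730 CPM, and the log2 effect in cluster 24 minus that in cluster 25 was -1.66 ± 0.29 (edgeR adjusted p = 0.000343). Malat1, a nuclear RNA, was the other, at 8709, 10269 and 11379 CPM in cluster 24 and 675, 3905 and 1013 in cluster 25 (log2 1.05 ± 0.23, edgeR adjusted p = 0.0178). The controls of cluster 25 lay far apart for Malat1, and its call was lost with RLE factors and without the filter on low counts. Cluster 25 held 195 cells, and the size of difference this comparison can detect was not tested.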

How the data were processed

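UMI counts of 3 droplet libraries (10x Chromium) were used, 2 of control and 1 of Angpt1ΔNC pools. The deposited counts are whole-number UMI counts per gene and cell, made by the authors with Cell Ranger (2.1.1 in the submitters' processing notes, although the headers of the deposited matrices name a later version) on mm10, and not normalized. The deposited cluster tables name the kept cells, which the authors had filtered, cleared of doublets and clustered with Seurat 3.1.3 on integrated values. Only the cluster number was read from them, and their expression columns, on an integrated log scale, were not used. Barcodes were matched to the count matrices. Libraries held 66484181 to 80346829 UMIs in kept cells.

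The counts of cluster 24 were summed per library, since cells are not replicates, and compared with edgeR 4.0.16 in R 4.3.3: TMM factors, filterByExpr, the quasi-likelihood test, and a threshold of 0.05 on p-values adjusted after Benjamini and Hochberg. DESeq2 1.42.0 was an alternative. The difference of genotype effects between clusters was an interaction term with the library as a block. The pools are separate samples. In the genotype fit, the spread between the 2 controls gave 1 residual degree of freedom per gene. A spread estimated over all genes gave 12.37 prior degrees of freedom, so the p-values rest mostly on that shared spread. Intervals of shares are exact binomial (Clopper-Pearson, 95%). They cover counting error only. Thinning drew 1000 or 3000 UMIs per cell without replacement. The scripts were checked on simulated counts.

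Genes were named by rule. For genotype these were the 12 per direction with the smallest adjusted p, past a log2 change of 1 and outside both controls, sex-linked genes apart. For clusters 24 and 25 they were the 12 per direction with the largest smallest log2 ratio over the libraries, among genes of at least 100 CPM. For variation they were the 12 with the largest smallest ratio of variance to mean. To these were added members of 42 gene lists. The members and lists were chosen with earlier results of these data known. The comparison with other kept cells and the fit without hemoglobin-rich cells were added after the data had been seen.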

Additional observations from a re-analysis of the deposited data

Results flagged for a closer look

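The genotype effect differed between cluster 24 and cluster 25 for 2 genes, Ccl4 and Malat1, by the interaction test in edgeR. It differed between cluster 24 and the kept cells outside clusters 22 to 25 for 175 genes by the same test. Among the genes named by rule, the log2 effect in cluster 24 minus that in those cells was 1.51 for Il11ra1, 2.31 for Hba-a2, 1.99 for Ifi203, 2.13 for Slc25a28, 1.73 for Apold1 and 1.88 for Dock10. It was -4.48 for Ifi202b, -2.97 for Irak1bp1, -2.11 for BC022687, -5.11 for Cacna1a and -3.41 for Fam20c. In Angpt1ΔNC, 99.8% of the hemoglobin UMIs of cluster 24 lay in 18 cells. Clusters 22, 23 and 25 were not among the other kept cells. In cluster 23 Ifi202b, Irak1bp1 and BC022687 were also lowest in Angpt1ΔNC, and Ifi203, Slc25a28, Dock10 and Hba-a2 highest. Dock10 there, at 66.7, 54.7 and 76.6 CPM, was near control replicate 1. Hba-a2 stood at 0, 0 and 226 CPM, and 1 of the 86 mutant cells of cluster 23 had over 100 hemoglobin UMIs. Each log2 difference between cluster 24 and the other kept cells given above passed the test of the difference itself. The make-up of those cells, which differs between libraries, was not tested as a part of it.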

How the results depend on the processing

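No paired analysis was made, because the labels pair no control pool with the Angpt1ΔNC pool. Of 85 named genes, 39 kept their call in every alternative that gave a p. The genotype counts, higher and lower, were 36 and 36 with DESeq2, 387 and 362 without the filter on low counts, 331 and 287 with equal cells per library, and 144 and 93 in Y-positive cells without Xist. The RLE, other-marker and hemoglobin alternatives stayed within 1.5 times the main counts. Among single genes, Il1r2 turned to -1.22 and Gpnmb to -0.0747 in cells with at most 1 UMI of other cell types, and Areg turned to 0.26 and Eif2s3y to 0.0640 in Y-positive cells; the cause was not tested. Against cluster 25, 0 genes were higher by edgeR with RLE factors (145 in either direction at an unadjusted p under 0.05) and 0 without the filter (129), and against other kept cells RLE factors gave 48 and 46. Leaving out a control leaves 1 library against 1, so folds alone were recomputed, and 79 and 78 of the 85 named genes moved by less than the larger of 0.5 on the log2 scale and 1 SD of the controls. Without control replicate 1 and without control replicate 2 the log2 difference was 6.39 and 2.61 for Hbb-bs, 3.94 and 1.58 for Il23a, and 2.71 and 0.99 for Ccl17.

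The difference in share was -6.04 percentage points among clusters 22 to 25 and 1.13 among Y-positive cells, and ran from -0.565 to 0.247 without either control. In cluster 24 against 25, 50 CPM added gave 278 higher and 23 lower genes and 1 added gave 241 lower. Without 1 library the counts ran from 970 to 1324 higher and from 146 to 255 lower, the upper ends without control replicate 2. The 88943 to 157504 UMIs of cluster 25 limit that comparison.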
